A study of Rattus norvegicus with 8 samples.

Results

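miR-204 and its minor-arm partner miR-204* (rno-miR-204 and rno-miR-204* on the array) are 2 of the 677 rat microRNAs (miRNAs) on the array, and they were taken by name from the non-control features. MicroRNAs are short RNAs that pair through their seed (bases 2 to 8) with target messenger RNAs and lower their output. miR-204 lies in an intron of the cation channel gene Trpm3 and is known from retinal pigment epithelium, choroid plexus and pancreatic beta cells. In beta cells it is described as induced by the thioredoxin-interacting protein Txnip and as repressing Mafa, a transcription factor of the insulin gene, and it has also been tied to the incretin receptor gene Glp1r.

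Islets, the hormone-secreting clusters of the pancreas in which beta cells predominate, came from untreated (control) Sprague Dawley rats. One group was 10 days old (P10, n = 4 arrays) and the other consisted of males 3 months old (adult, n = 4). The sex of the P10 animals and the number of animals per array are not given in the labels, so p-values measure the spread between these 8 arrays. The series asks which miRNAs change as beta cells mature.

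The sequences show what the array had to tell apart. Mir204 has a hairpin of 110 bases on the plus strand of the rat assembly GRCr8 (chr1:229743461-229743570), inside the span of Trpm3 and on its strand. In the RefSeq hairpin the capitals mark both mature arms, bases 33 to 54 for the major arm (miR-204) and bases 72 to 93 for the minor arm (miR-204*):
Mir204 hairpin: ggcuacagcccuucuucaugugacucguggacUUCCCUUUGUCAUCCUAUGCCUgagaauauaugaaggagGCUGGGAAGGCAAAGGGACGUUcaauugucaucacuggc
Of 693 mature rat miRNAs in the RefSeq table, 2 carry the seed of miR-204, namely miR-204 itself and miR-211, whose hairpin lies within the span of the related channel gene Trpm1. Their mature arms are shown with the seed in capitals, followed by both minor arms:
miR-204: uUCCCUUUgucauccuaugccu
miR-211: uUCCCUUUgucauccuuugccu
miR-204*: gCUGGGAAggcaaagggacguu
miR-211*: gGCAAGGAcagcaaaggggg
The major arms differ by 1 of 22 bases, A17U counted from the 5′ end of miR-204, whereas the minor arms differ in length and share a longest run of 8 bases and no seed. The scanner files give no probe sequences, so how well the miR-204 probes separate miR-204 from miR-211 was not tested.

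miR-204 was well above background in both ages and higher in adult islets. It was read by 2 probes (A_26_P00001463 and A_26_P00001464, here the brighter and the dimmer) with 10 spots each per array. Before any scaling, the brighter probe averaged an intensity of 48.1, 91.8, 266 and 437 on P10 replicates 1 to 4. On adult replicates 1 to 4 it averaged 1069, 1031, 1371 and 981, so that no P10 array reached the lowest adult array. The dimmer probe averaged 15.6, 29.9, 74.0 and 137 in P10 and 268, 264, 332 and 261 in adult. On P10 replicate 1 none of its spots was well above background, and it stood just over the 95th percentile of the negative control spots there (12.3). Spots of the brighter probe within 1 array varied with a coefficient of variation between 2.92% and 11.3%, much less than the arrays varied within P10.

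**Figure D1:**
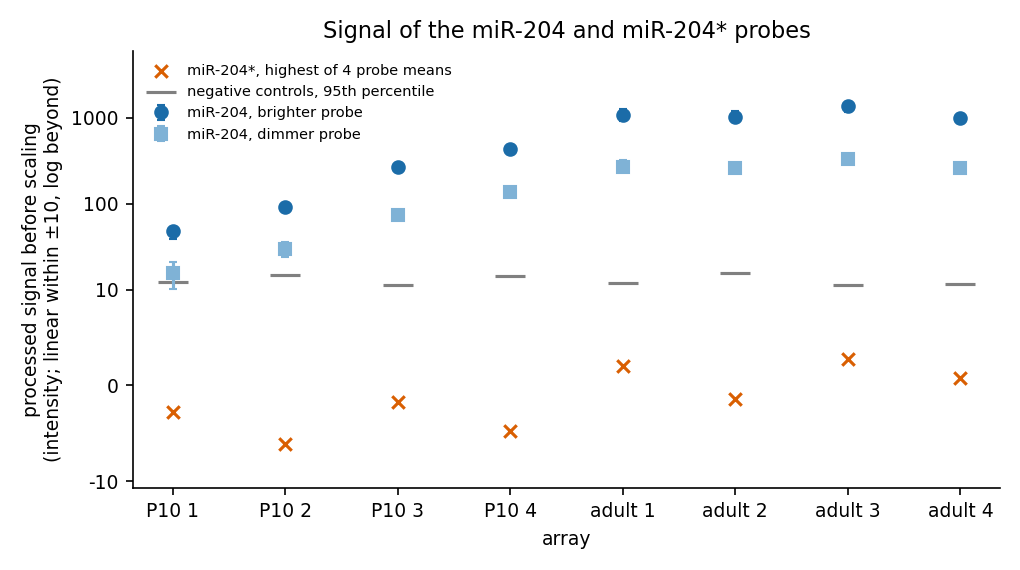
Processed signal before scaling (intensity, linear within ±10 and logarithmic beyond) for each of the 8 arrays; circles and squares are means over the spots of the brighter and the dimmer miR-204 probe, with bars from the lowest to the highest spot, crosses are the highest of the 4 miR-204* probe means, and grey dashes are the 95th percentile of negative control spots. The brighter miR-204 probe lies between 48.1 and 437 in P10 and between 981 and 1371 in adult, while miR-204* lies below the negative control level on all 8 arrays.

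miR-204* gave no signal that could be compared between ages. It was spotted 20 times per array through 4 probes, and of 158 used spots on the 8 arrays, 0 were well above background. Of these, 139 had a background-subtracted signal at or below 0. The scanner software called miR-204* detected on 0 of 8 arrays and miR-204 on 8 of 8. This sets no limit on how much of the minor arm the islets held, because probe response was not measured. The authors' deposited table of 311 miRNAs lists miR-204 and not miR-204*.

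The P10 arrays differed in brightness. The 75th percentile of the signal, taken over probes bright enough to be read everywhere, was 388 on replicate 1 and 439.9 on replicate 2. It was 989 on replicate 3, 1690.3 on replicate 4, and 1284 to 1677 on the adult arrays. Each array was therefore divided by this percentile and log2 was taken. On this scale 0 is the 75th percentile and values were raised to a floor of -5.51. All arrays shared 1 slide with P10 in 1 slide column and adult in the other, so column and age cannot be told apart.

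On the scaled log2 level miR-204 stood at -3.01, -2.26, -1.90 and -1.95 on P10 replicates 1 to 4 and at -0.34, -0.44, -0.29 and -0.39 on adult replicates 1 to 4. All 4 adult arrays lay above all 4 P10 arrays, with a gap of 1.45 between the nearest pair. The adult arrays spanned 0.15 and the P10 arrays 1.12, with replicate 1 lowest. The mean was -2.28 ± 0.51 (SD, n = 4) in P10 and -0.37 ± 0.065 (SD, n = 4) in adult. The log2 difference of 1.91 ± 0.24 (SE; 95% interval 1.36 to 2.47) is a 3.77-fold rise (limma, adjusted p = 0.000371 over 238 miRNAs). This SE, the interval and the limma p-value assume the same spread at both ages, whereas the SD in P10 was 7.97 times that in adult. The exact two-sided permutation p was 0.0286, the smallest that 70 splits of 4 against 4 arrays allow. Islets are a mixture of cells, and a larger share of miR-204-bearing cells cannot be told apart from more miR-204 per cell.

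The background of this comparison was high. Of 238 miRNAs tested, 113 (47.5%) passed, of which 65 (27.3%) were higher and 48 (20.2%) lower in adult. The adult arrays lay wholly above the P10 arrays for 61 (25.6%). A call or a lack of overlap was thus common, and the size of the difference places miR-204 11th of 238 in signed order. The nearest larger differences were those of miR-29c* (2.02) and miR-132 (2.15), and the nearest smaller ones those of miR-7a (1.85) and miR-325-3p (1.76). miR-204 lay within 1 combined SE of 10 other miRNAs in this order. Of the 4 neighbours, miR-132 was at the floor on 2 P10 arrays, so that its size depends on the floor. Over 30 other settings the place of miR-204 ran from 5th of 164 (filter on all 8 arrays) to 15th of 238 (total gene signal, cyclic loess over all probes).

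The 2 probes gave the same direction with different sizes. The brighter probe differed by 1.91 and the dimmer by 1.62 ± 0.22 (SE, n = 4 per age; limma adjusted p = 0.000526 over 435 probes, of which 25.3% passed as higher in adult). On the scaled level the dimmer probe stood at -4.64, -3.88, -3.74 and -3.62 on P10 replicates 1 to 4 and between -2.41 and -2.30 on the adult arrays. The log2 ratio of the brighter over the dimmer probe was 1.69 ± 0.11 (SD, n = 4) in P10 and 1.98 ± 0.058 in adult, without overlap (exact two-sided permutation p = 0.0286). Both probes were hybridised with the same labelled RNA and are not replicates. The size of the rise differed between them by 0.29 on this log2 scale. Under other settings the dimmer probe's difference ran from 0.60 to 2.50 (26 settings) and the brighter probe's from 1.43 to 2.94 (27 settings). Whether the probes read miR-204 alone was not tested.

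**Figure D2:**
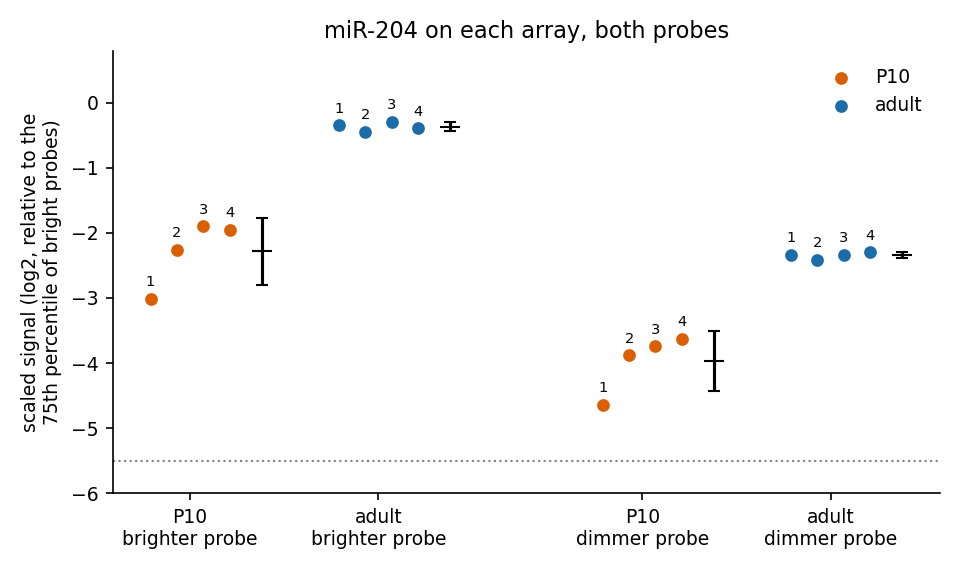
Scaled log2 level of miR-204 on each array (numbers are replicates; 0 is the 75th percentile of bright probes), for its brighter and dimmer probe; bars show the mean ± SD of 4 arrays and the dotted line the floor of -5.51. With either probe every adult array lies above every P10 array, and P10 replicate 1 is the lowest.

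The rise was seen with the dimmer and with the brighter P10 arrays. With P10 replicates 3 and 4 alone, the difference was 1.56 ± 0.084 (SE), with a limma adjusted p of 3.27e-05. With P10 replicates 1 and 2 alone it was 2.27 ± 0.20. Without P10 replicate 1 it was 1.67. The small SE with replicates 3 and 4 rests on values close together (-1.90 and -1.95). Replicate 3 (989) was still dimmer than every adult array (1284 to 1677), and the part of brightness was not tested. Adult arrays lay above P10 arrays in 30 of 30 other settings, and the log2 difference ran from 1.43 with normexp background correction to 2.94 with spike-in scaling. The call was lost in 1 of them, cyclic loess over all probes (1.75, limma adjusted p = 0.101). The 30 adjusted p-values ran from 3.40e-06 to 0.101. Scaling also moved the bulk of miRNAs: the median difference of those tested was -0.014 here, and 0.45, 0.94, 1.00, 0.19 and -0.28 with the percentile over all probes, no scaling, spike-in scaling, cyclic loess over all probes and normexp. It was 0.11 to 0.19 with quantile normalization, cyclic loess on bright probes, total gene signal and the authors' deposited table. Relative to that median, miR-204 stood between 1.46 and 2.34 higher in adult in all 30. The split of calls, 65 higher to 48 lower here, was 90 to 34, 58 to 17, 49 to 9, 7 to 13 and 33 to 47 in those 5 settings.

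**Figure D3:**
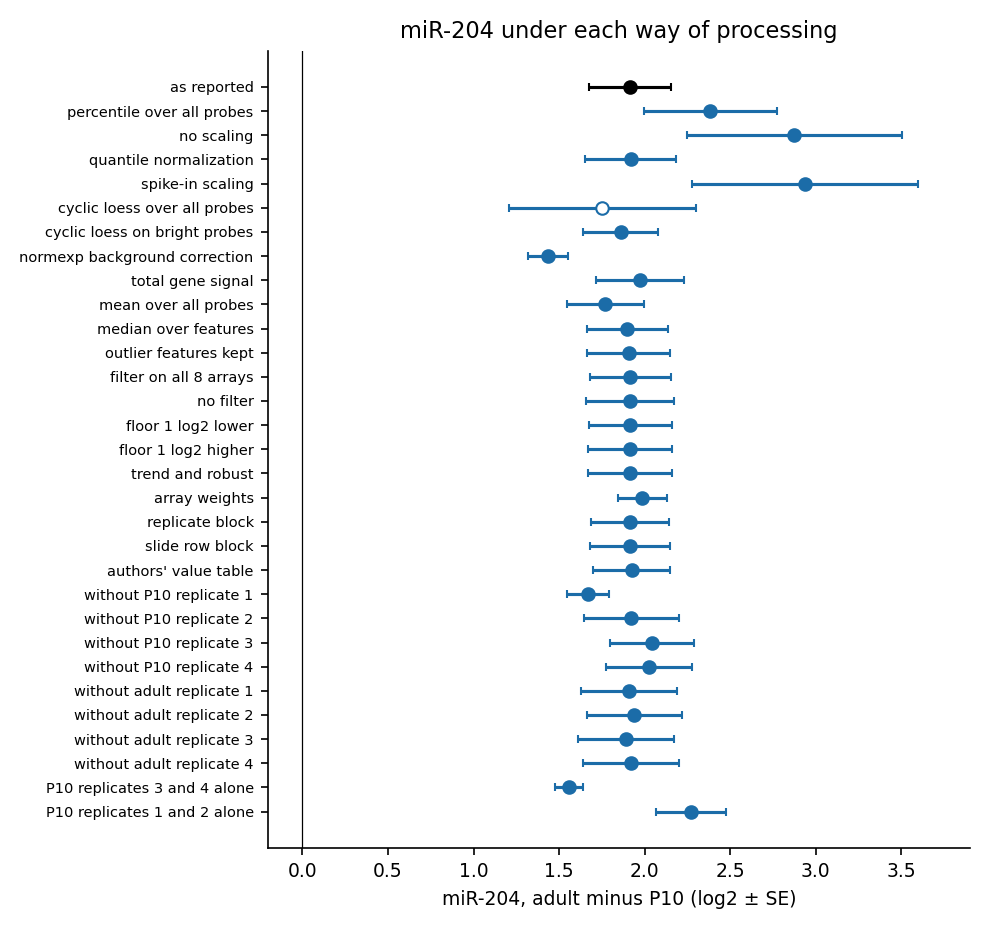
Log2 difference of miR-204, adult minus P10, with its SE, as reported (black) and under each of 30 other settings; filled circles have a limma adjusted p under 0.05 and the open circle does not. The values run from 1.43 to 2.94, and the open circle is cyclic loess over all probes.

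In the authors' deposited table, which holds log2 values with a median of 6.54 in every column, miR-204 stood at 6.89, 7.43, 7.97 and 7.78 on P10 replicates 1 to 4 and at 9.40, 9.36, 9.50 and 9.50 on adult replicates 1 to 4. The groups did not overlap there either, and the difference was 1.92.

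A difference between miRNAs on the same array does not depend on that array's scaling factor, so miR-204 was set against 3 others: miR-375 and miR-7a, the classic islet endocrine miRNAs, and the broadly expressed let-7a. RefSeq gives them other seeds (capitals):
miR-375: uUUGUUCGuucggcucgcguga
miR-7a: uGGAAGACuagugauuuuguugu
let-7a: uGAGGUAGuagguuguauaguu
Relative to miR-375, a regulator of insulin secretion, miR-204 lay at -5.91, -5.44, -5.46 and -5.38 (log2 difference within the array) on P10 replicates 1 to 4 and at -4.11, -4.10, -3.88 and -4.30 on adult replicates 1 to 4. The sets of arrays did not overlap. miR-204 thus gained 1.45 on miR-375 between P10 and adult (95% interval by inverting the permutation test 1.09 to 2.02; exact two-sided permutation p = 0.0286, adjusted p = 0.0429 over 3 comparisons). Relative to let-7a it stood at -6.55, -5.85, -5.09 and -4.93 in P10 and between -3.93 and -3.80 in adult, and gained 1.76 (interval 1.00 to 2.75; exact permutation p = 0.0286, adjusted p = 0.0429). Neither gain passed when cyclic loess was run over all probes (0.59 and 0.79, exact permutation, adjusted p = 0.814 each).

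Relative to miR-7a, a brake on insulin granule fusion, no difference between ages was found. miR-204 lay at -4.90, -5.21, -5.44 and -5.65 relative to miR-7a on P10 replicates 1 to 4 and between -5.36 and -5.13 on the adult arrays, which fell inside the P10 range. The change was 0.062, and its interval of -0.46 to 0.51 holds changes of either sign (exact two-sided permutation p = 0.771). This depended on the processing: miR-204 gained 0.96 on miR-7a with quantile normalization, 0.81 with cyclic loess on bright probes and 1.08 in the authors' deposited table, each with an exact permutation adjusted p of 0.0286. The levels of these miRNAs come from different probes and are not compared.

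**Figure D4:**
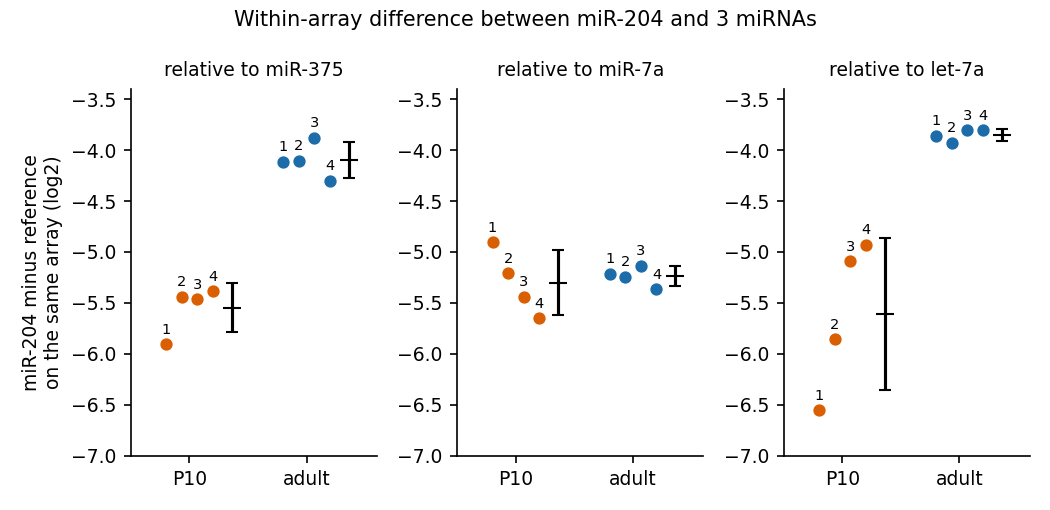
Within-array log2 difference of miR-204 to miR-375, miR-7a and let-7a, by age (numbers are replicates; bars show the mean ± SD of 4 arrays). P10 and adult arrays do not overlap relative to miR-375 and let-7a, and the adult arrays lie within the P10 range relative to miR-7a.

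The islet endocrine miRNAs miR-375 and miR-7a were well above background on 8 of 8 arrays, which does not show how pure the islets were. On the scaled level miR-7a stood at 1.89, 2.95, 3.54 and 3.70 in P10 and between 4.80 and 4.98 in adult, a rise of 1.85 ± 0.37 (SE, limma adjusted p = 0.00394). It did not pass with quantile normalization (0.95), with all-probe cyclic loess (1.61) or in the authors' deposited table (0.84). The difference of miR-375 was 0.47 (limma adjusted p = 0.0485). It was called in 10 of 30 other settings. The call was lost, among others, without scaling (1.42), with spike-in scaling (1.49), normexp (0.52) and all-probe cyclic loess (1.16), and without any 1 array other than P10 replicate 3 or 4 (0.34 to 0.51). The difference turned to -0.30 with quantile normalization, -0.27 with cyclic loess on bright probes and -0.41 in the authors' deposited table. let-7a differed by 0.15 (limma adjusted p = 0.459) and was called lower under the same 3 settings (-0.51, -0.57 and -0.57). It was called higher in 2, the percentile over all probes (0.62) and P10 replicates 3 and 4 alone (0.40).

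Markers of other cell types differed among the P10 arrays, some in the order of miR-204 and some not. In the sums below, a marker not well above background on an array was counted as 0. The acinar list (miR-216a, miR-216b-5p, miR-217) had a summed scaled signal of 0.961 on P10 replicate 1 and 0.801 on replicate 2, where miR-204 was lowest, and of 0.0367 on replicate 3 and 0 on replicate 4. In adult it was between 0.230 and 0.460. None of the 3 passed (0.61, -0.47 and 0.51), and against P10 replicates 3 and 4 alone 3 of 3 were called higher in adult. Against P10 replicates 1 and 2 alone, where 182 of all 238 miRNAs were called, 0 of the 3 were called higher and 2 lower. The summed signal of miR-375 and miR-7a was 11.1 on P10 replicate 1, 16.8 on replicate 2, 23.5 on replicate 3 and 23.7 on replicate 4. It ran from 40.5 to 46.5 in adult, where the log2 rise was 1.85 for miR-7a and 0.47 for miR-375. The gut epithelium list (miR-192, miR-194, miR-215) summed to 7.27, 1.11, 13.5 and 2.37 on P10 replicates 1, 2, 3 and 4, an order unlike that of miR-204, and to between 0.258 and 0.486 in adult, and 3 of its 3 members fell, with differences below 0 in every other setting that gave one. For 5 mesenchymal markers the sum was 4.25, 4.75, 6.11 and 7.38 in P10 and 5.10 to 7.11 in adult (miR-143 rose, and miR-199a-5p, miR-199a-3p and miR-214 fell). For 2 endothelial markers it was 2.34, 2.83, 4.43 and 4.71 in P10 and 2.92 to 3.32 in adult (0 called). As for miR-204, replicates 1 and 2 had the lower of these sums and replicates 3 and 4 the higher. Among the mesenchymal markers only miR-143 and miR-145 had this order. miR-199a-5p (-0.95), miR-199a-3p (0.051) and miR-214 (-1.94) were lowest on P10 replicate 4. The sums in P10 and adult ran from 0.125 to 0.253 and 0.250 to 0.652 for 2 erythroid markers (miR-451 and miR-144 rose), and from 0.699 to 3.64 and 1.24 to 1.58 for 4 leukocyte markers (0 called). The mesenchymal falls were not called without scaling, with spike-in scaling or when cyclic loess used all probes, where miR-199a-5p was at 0.00016. miR-143 was called in 10 of 30 other settings. miR-144 was called in 11 and turned to -0.28 in 1. On P10 replicates 3 and 4, where the acinar sum was at or near 0, the mean of miR-204 stood 1.56 below that of adult. These arrays held other marker signal: the gut epithelium sum was highest on replicate 3 (13.5) and the leukocyte sum on replicate 4 (3.64). The part of any of these cell types in the difference of miR-204 was not tested.

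miR-211, which shares the seed, was near background. Its probes were well above background on 0, 1 and 3 of 8 arrays, and it was not tested. The scanner software called it detected on 6 of 8 arrays. Before scaling, the brightest probe of each array, not the same on all arrays, gave 6.17, 17.4, 12.3 and 39.7 in P10 (replicates 1 to 4). In adult it gave 21.2, 41.6, 23.1 and 18.4. The ages overlapped. The partner arm miR-211* was well above background on 3 P10 and 4 adult arrays. It stood at -4.23, -2.96, -5.21 and -4.98 on the scaled level of P10 replicates 1 to 4 and at -4.19, -3.91, -4.16 and -3.52 on the adult arrays, which lie inside the P10 range. Its difference of 0.40 ± 0.47 (SE, n = 4 per age) did not pass (limma adjusted p = 0.527). It passed in 5 other settings, among them no scaling (1.31) and P10 replicates 3 and 4 alone (1.15). In 3 settings it stood below 0 without a call (lowest -0.66).

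Other miRNAs described as acting on insulin production went both ways. Of 12 listed, 10 were on the array and tested: 4 rose, 3 fell and 3 did not pass, with a median of 0.24 beside -0.014 over all 238. With the other scalings and in the authors' deposited table, 0 to 6 rose and 1 to 4 fell. The median of the list then ran from -0.13 (cyclic loess over all probes) to 1.26 (spike-in scaling). Over all 238 the median was 0.19 and 1.00 in these settings. Besides miR-204, miR-24 rose by 1.04 ± 0.15 (SE, limma adjusted p = 0.000753), miR-148b-3p by 0.68 (limma adjusted p = 0.00418) and miR-26b by 0.38 (limma adjusted p = 0.0159), the latter 2 named after their values were seen. All 3 have been described as supporting insulin transcription. miR-24 lost its call with quantile normalization (0.52) and all-probe cyclic loess (0.86). miR-148b-3p was called in 28 of 30 other settings and stood below 0 in 1 (-0.24). miR-26b was called in 21 of 30 and stood at -0.096 with quantile normalization. miR-92a (-2.14), miR-19b (-2.08) and miR-25 (-1.30), which belong to proliferation-linked clusters and have been described as acting on insulin messenger RNA or on the transcription factor NeuroD, fell. miR-92a lost its call with all-probe cyclic loess (-1.58), miR-19b with spike-in scaling (-1.06), and miR-25 there (-0.28) and in 3 other settings. miR-182 (0.28) and miR-26a (0.20) did not pass. miR-182 was called higher in 7 of 30 other settings. miR-26a was called higher in 2, among them the percentile over all probes (0.67), and lower in 3, among them quantile normalization (-0.43).

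Of 20 miRNAs listed for secretion and exocytosis, 16 were tested: 8 rose, 1 fell and 7 did not pass, with a median of 0.41. With the other scalings and in the authors' deposited table, 2 to 9 rose and 0 to 2 fell. The fall was that of miR-130a (-0.82), named after its values were seen, which stood above 0 in 2 other settings (up to 0.20). miR-29b (3.59), miR-29c (2.68) and miR-29a (2.66), described as acting on membrane fusion genes, and miR-132, an activity-induced miRNA, had the largest rises. All of these exceeded that of miR-204, miR-132 by less than 1 combined SE. With all-probe cyclic loess miR-29b (2.10) and miR-29c (1.55) lost their calls, and with normexp miR-132 did (0.55). miR-338 (0.36) and miR-21 (-0.35) had the largest differences among those that did not pass. miR-9, miR-124 and miR-187 were not well above background on any array. The shares of both lists stand beside 27.3% called higher and 20.2% called lower among all tested.

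**Figure D5:**
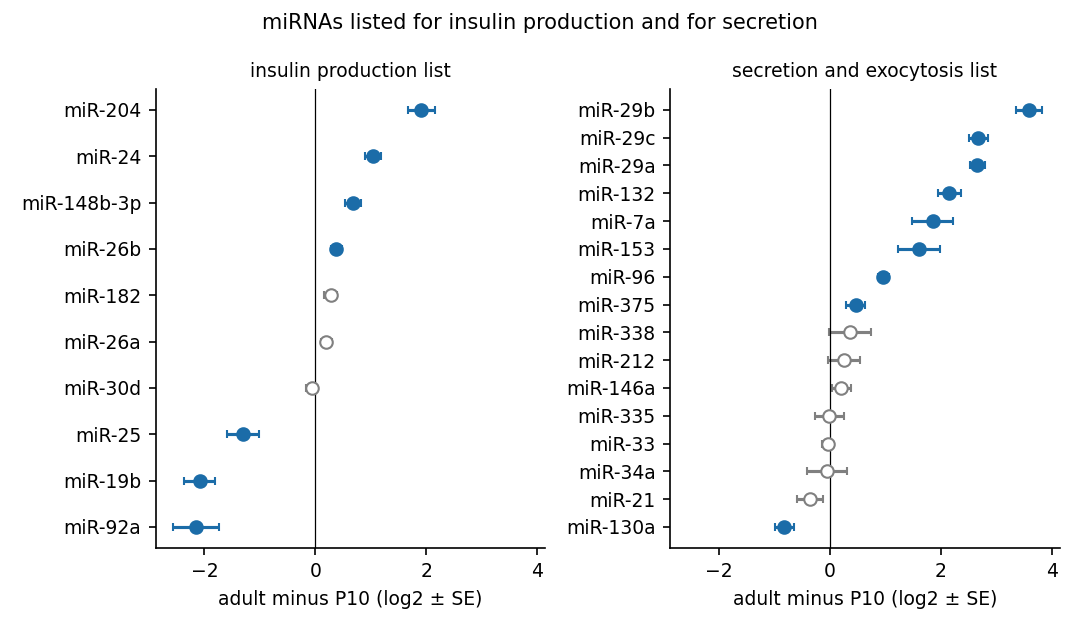
Log2 difference, adult minus P10, with its SE, for the tested members of the insulin production list (10) and the secretion and exocytosis list (16); filled circles have a limma adjusted p under 0.05, open circles do not. miR-204 has the largest rise in the first list, and miR-29b (3.59) the largest in the second.

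The miRNAs whose pattern over the 8 arrays was most like that of miR-204 were miR-24 (Pearson r = 0.995), miR-129-1* (0.994), miR-98 (0.994), let-7e (0.989) and miR-23b (0.987), and 43 of 237 others had an r above 0.9. These values carry the difference between ages and the shared scaling factor of each array. After the mean of each age was taken out, the most alike were miR-340-3p (0.992), miR-7b (0.990), miR-325-3p (0.982), miR-7a (0.978) and miR-129 (0.977), with 22 of 237 above 0.9. No miRNA was among the first 5 by both measures. The second measure rests mostly on the P10 arrays, since miR-204 had an SD there 7.97 times that of adult. miR-7a and miR-7b, both of the miR-7 family, thus shared with miR-204 their lowest value on P10 replicate 1 and the next lowest on replicate 2. So did every other miRNA named here by either measure. miR-7b rose by 1.09 (limma adjusted p = 0.0390; lost in 16 other settings) and miR-340-3p did not pass (0.71, limma adjusted p = 0.0902).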

How the data were processed

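Per the labels, total islet RNA was put on 1-colour Agilent miRNA arrays. The deposited intensity of each spot was made with Feature Extraction (Agilent, 10.7.3.1), per the file headers, and its processed form is background-subtracted and can be below 0. A value table deposited by the authors is on a log2 scale; how it was made is not stated in these sources. Its order matched the total gene signal of each array (Spearman correlation 1).

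Outlier-flagged spots were left out and the rest averaged per probe. Each array was divided by its 75th percentile over 278 probes well above background on all 8 arrays, raised to a common floor (-5.51, the median 1st percentile of probes above background), and log2 was taken. Each miRNA was represented by its brightest probe, and those above background on at least 4 arrays were tested (238) with limma 3.58.1 in R 4.3.3, Benjamini-Hochberg threshold 0.05. The number of arrays limits the precision. The limma step was tested on simulated data in which each miRNA had the same SD at both ages. That test does not cover the wider spread of the P10 arrays (median SD 0.38, against 0.11 in adult). No arrays were duplicates (highest correlation 0.997).

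The miRNAs, lists and tests were chosen with earlier results of these data known. Named miRNAs were both members, miR-211 and its partner arm, 3 references, up to 4 called and 2 other members per list, 5 most alike by each measure, and 2 neighbours on each side in order of difference. Array names were matched to RefSeq (GRCr8), and * was taken as the minor arm. Listed miR-148b and miR-216b were read as the array's miR-148b-3p and miR-216b-5p. The array design names the build rn4, so only RefSeq coordinates are given. Alternatives covered scaling, background, probe summary, filter, floor, fit, blocks and arrays left out. The normexp alternative used median spot signals, with an offset of 50, in place of the planned mean signals.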

Additional observations from a re-analysis of the deposited data

Results flagged for a closer look

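miR-204 relative to miR-375 stood at -5.91 on P10 replicate 1, apart from the other 3 P10 arrays. miR-92a stood at -1.80 on adult replicate 4, below the other 3 adult arrays. miR-132 stood at -3.29 on adult replicate 1, below the other 3 adult arrays. These 3 came from 60 groups of 4 arrays examined, and chance gives about 1 in 20. miR-211, left out of the comparisons, had its brightest probe above the 95th percentile of the negative control spots on 7 of 8 arrays, 3 P10 and 4 adult. Its lowest such signal was 6.17 on P10 replicate 1, against 12.3 for the negative controls, and its highest 41.6 on adult replicate 2, against 15.7. No difference between ages was tested for it.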

How the results depend on the processing

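The rise of miR-204 kept its direction in 30 of 30 alternatives and its call in 29. With cyclic loess over all probes it was 1.75 (limma adjusted p = 0.101), its brighter probe lost its call too (1.75), the dimmer probe (1.41) did not, and the gains on miR-375 and let-7a fell to 0.59 and 0.79, without a call. The cause was not tested. The comparison with miR-7a passed with quantile normalization (0.96), cyclic loess on bright probes (0.81) and in the authors' table (1.08). The number of miRNAs called, 113, was 75 without scaling, 58 with spike-in scaling, 20 with cyclic loess over all probes, 179 with array weights and 182 with P10 replicates 1 and 2 alone. Leaving out 1 array gave 84 to 138 calls and a difference of 1.67 to 2.04 for miR-204. The replicate block gave 1.91 for miR-204 (limma adjusted p = 0.00352) and 95 calls. Deviations of same-numbered arrays correlated at 0.177, -0.0897, 0.475 and -0.230 for replicates 1 to 4. Only P10 replicate 3 correlated best with the adult array of its own number, so the numbers are not taken as pairs. Among the other named miRNAs, 10 of 742 values turned sign where the difference was called on at least 1 side: miR-375 (-0.30, -0.27 and -0.41), let-7a (-0.51, -0.57 and -0.57) and miR-26a (-0.43, -0.37 and -0.49) with quantile normalization, cyclic loess on bright probes and in the authors' table, and miR-98 (-0.060) with cyclic loess over all probes. Of the rest, 56 lost and 26 gained a call. The dimmer probe has no value under the filter on all 8 arrays, nor where miRNAs were summarised without probes. Within-array differences have no value of their own under other filters or variance models, and no exact test under a block or with 2 P10 arrays. The planned spike-in scaling used 4 control RNAs above background on all arrays, whose level varied 1.23-fold between arrays. Signal near background limits miR-204* and miR-211.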

Other observations

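The low values of miR-204 on P10 replicates 1 and 2 were shared by many miRNAs. Both of these arrays lay below both of replicates 3 and 4 for 69 of 238 tested miRNAs (29.0%) and above them for 95 (39.9%). Among the 65 called higher in adult, 32 (49.2%) had replicates 1 and 2 below replicates 3 and 4. The median SD of the tested miRNAs was 0.38 in P10 and 0.11 in adult, against 0.51 and 0.065 for miR-204.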
